A study of Homo sapiens with 6 samples.

Results

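Alpha- and beta-tubulin are the paired subunits of microtubules, and the 10 isotype genes described here are TUBA1A, TUBA1B, TUBA1C and TUBA4A (alpha) and TUBB, TUBB2A, TUBB2B, TUBB3, TUBB4B and TUBB6 (beta). They were picked by gene name, with earlier results of these data known, from the 67130 genes of the deposited RNA-seq table, leaving out copies on alternative contigs. Each name matched 1 gene. All 10 reached a mean of 1 FPKM over the samples, as did 12025 genes in all. FPKM, fragments divided by the length of the transcript and by sequencing depth, is a value per length, so that levels of different genes can be set side by side.

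The samples were cultures of hTERT-RPE1-TOShOFD1, a telomerase-immortalized human line from retinal pigment epithelium that carries a Tet-On short hairpin RNA against OFD1, a protein of centrosomes and cilia. The control group (3 samples) grew for 72 h without doxycycline, and the OFD1-depleted group (3 samples) grew for 72 h with 200 ng/mL doxycycline, which switches the hairpin on. The cells of both groups carried the hairpin cassette and were otherwise labelled wild type. No sample with doxycycline but without the hairpin was analysed here, so depletion of OFD1 and exposure to doxycycline cannot be told apart. The study calls the replicates biological, but neither the labels nor its methods say that they were separate cultures, and the p-values measure the spread between these samples.

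OFD1 itself had 3.34, 3.62 and 3.44 FPKM in control and 0.795, 0.763 and 1.43 FPKM in OFD1-depleted replicates 1 to 3 (log2 fold change -1.75, adjusted p = 0.00085 by limma with Benjamini-Hochberg adjustment). If the step between low values is 1 fragment, depth was 37600000 to 39300000 fragments in control and 39700000 to 44100000 in OFD1-depleted samples. This is approximate, since only 17.3% to 22.6% of these values lay within 0.02 of a whole multiple, where evenly spread values would give 4.0% at a depth fixed beforehand. Each depth was chosen, among many tried, as that with the largest such share, which by itself can lift the share above 4.0%. The labels give the tissue as retina, but 12 markers of photoreceptors and retinal neurons summed to at most 0.804 FPKM in any sample, and 6 of them were at 0 throughout. Of 13 markers of retinal pigment epithelium only MITF, OTX2 and RDH5 reached a mean of 1 FPKM, and RPE65, the visual-cycle enzyme that defines the tissue, had a mean of 0.0113 FPKM in control. Of 6 epithelial markers, the keratins KRT8, KRT18 and KRT7 had 146, 116 and 20.8 FPKM in control, whereas KRT19 had 0.15 FPKM, CDH1 0.0181 FPKM and EPCAM 0. Of 4 mesenchymal markers, VIM had 4288 FPKM, FN1 1765, CDH2 74.9 and S100A4 1.55 FPKM, so that the cells held keratins beside high mesenchymal markers.

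Each microtubule is a hollow polymer of alpha-beta tubulin dimers, which forms the mitotic spindle, the tracks of intracellular transport and the core of centrioles and cilia. New subunits are folded by prefoldin, the CCT chaperonin and tubulin cofactors before they pair. Cells also read the amount of free dimer: when it is in excess, TTC5 binds the first residues of a nascent tubulin chain on the ribosome and, through SCAPER and the CCR4-NOT complex, starts decay of that mRNA. The isotypes differ mostly in their carboxy-terminal tails, which carry most of the modifications of assembled microtubules.

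The start of the coding sequence is shown first, because the autoregulation of tubulin mRNA reads the residues that it encodes. The following 30 bases of coding sequence, 5′ to 3′, were read from GENCODE version 44 (canonical transcript of each gene, GRCh38), with the first 4 codons in capitals.
TUBA1B: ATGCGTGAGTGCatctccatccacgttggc
TUBA4A: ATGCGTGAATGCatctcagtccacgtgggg
TUBB: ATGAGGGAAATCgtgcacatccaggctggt
TUBB4B: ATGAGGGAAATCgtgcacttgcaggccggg
TUBB3: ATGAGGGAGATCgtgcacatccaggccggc
TUBB2A: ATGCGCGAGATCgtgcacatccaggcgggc
TUBB2B: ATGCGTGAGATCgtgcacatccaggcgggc
The 30 bases of TUBA1A and TUBA1C were the same as those of TUBA1B, and those of TUBB6 began with the same 4 codons as TUBB3. The 10 isotypes thus held 6 different versions of the first 12 bases. These encode the same residues, MREC, in every alpha isotype and the same, MREI, in every beta isotype. Every canonical transcript had 4 exons, all of them coding in part, with the start codon in exon 1. In the alpha genes exon 1 ended right after the start codon, with 3 coding bases, whereas in the beta genes it held 57. The start codon began at position 49131300 of chromosome 12 in TUBA1B, on the minus strand, and at position 137241361 of chromosome 9 in TUBB4B, on the plus strand.

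Most tubulin isotypes were lower in OFD1-depleted than in control samples. Of the 10, 9 were lower, 6 fell past the threshold of an adjusted p under 0.05 (limma on log2(FPKM + 0.1), Benjamini-Hochberg adjustment over 12025 genes) and 0 rose. The 6 were TUBA1B and TUBA1C among the alpha isotypes and TUBB, TUBB3, TUBB4B and TUBB6 among the beta isotypes. Over all genes tested, 17.0% passed the same threshold, 11.9% as lower and 5.07% as higher. The median log2 fold change was -0.49 over the 10 isotypes and -0.032 over all genes tested. In 8 of the 10 every OFD1-depleted value lay under every control value, against 22.3% of all genes tested. In bulk RNA, fewer cells of a kind and less RNA per cell cannot be told apart, and MKI67, made by cycling cells, differed between the same groups (log2 fold change -1.93, adjusted p = 5.18e-05 by limma). Its part in the tubulin result was not tested.

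**Figure D1:**
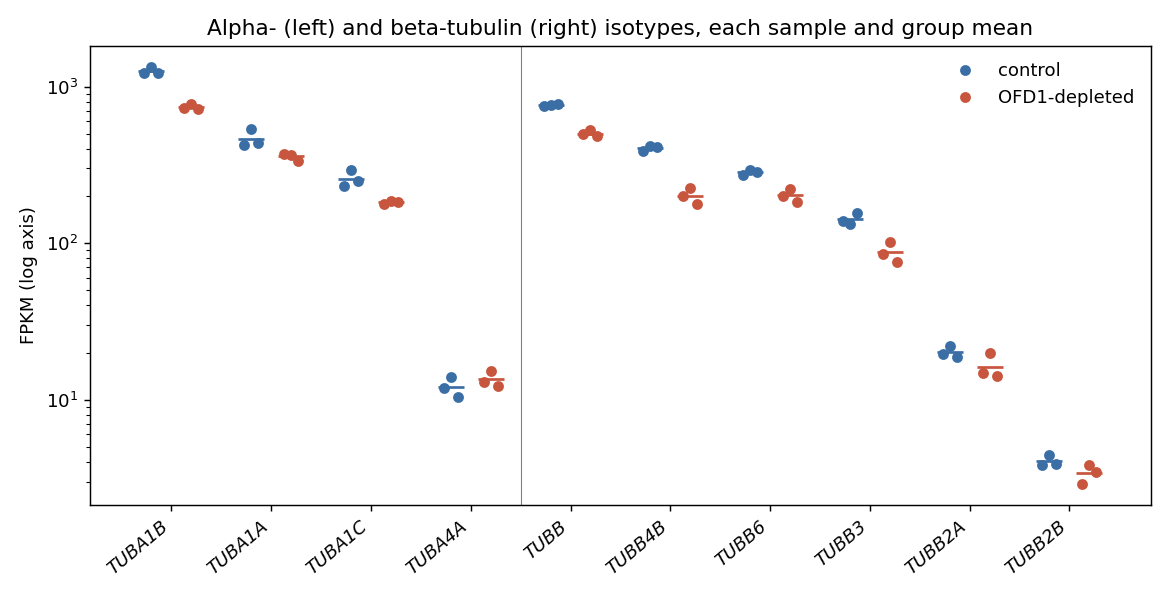
FPKM of the 10 isotypes on a log axis, with 1 point per sample, 3 control and 3 OFD1-depleted, and a bar at each group's mean. The OFD1-depleted points lie under the control points in 8 of 10 isotypes, and those of TUBA4A and TUBB2A overlap them.

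Among the alpha isotypes, TUBA1B carried most of the message and fell most. TUBA1B (ENSG00000123416, chr12:49127782-49131397, minus strand, coordinates of GRCh38 here and below) had 1212, 1337 and 1219 FPKM in control and 726, 768 and 719 FPKM in OFD1-depleted replicates 1 to 3. The highest OFD1-depleted value lay far under the lowest control value. Its mean was 1256 ± 70.1 FPKM in control and 738 ± 26.3 FPKM in the OFD1-depleted group (SD, n = 3 each), or 58.7% of the control mean. This gave a log2 fold change of -0.77 (SE 0.139, 95% interval -1.07 to -0.46, adjusted p = 0.00327 by limma). By its mean over the 6 samples it ranked 47 in level among all genes.

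TUBA1C (ENSG00000167553, chr12:49188736-49274600, plus strand), its close paralog, had 230, 294 and 249 FPKM in control and 177, 187 and 182 FPKM in the OFD1-depleted group. The groups did not overlap, and the OFD1-depleted replicates lay close together. The log2 fold change of TUBA1C was -0.49 (SE 0.135, adjusted p = 0.029 by limma). That call held without OFD1-depleted replicate 2 (adjusted p = 0.0174 by limma) and was lost when any other library was left out, with adjusted p of 0.063, 0.078 and 0.0901 without control replicates 1, 2 and 3, and 0.0941 and 0.0679 without OFD1-depleted replicates 1 and 3.

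TUBA1A (ENSG00000167552, chr12:49184686-49189080, minus strand), the alpha isotype best known from developing neurons, had 424, 539 and 434 FPKM in control and 372, 365 and 336 FPKM in the OFD1-depleted group. Its groups did not overlap either. The mean of TUBA1A was 466 ± 63.8 FPKM in control and 358 ± 18.9 FPKM in the OFD1-depleted group (SD, n = 3 each), and control replicate 2 set most of the control spread. The log2 fold change of -0.37 (95% interval -0.69 to -0.06, not adjusted over genes) did not pass the threshold (adjusted p = 0.101 by limma).

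TUBA4A (ENSG00000127824, chr2:219249710-219278170, minus strand) was the only isotype of the 10 with a higher mean in OFD1-depleted samples. It had 11.9, 13.9 and 10.4 FPKM in control and 12.9, 15.3 and 12.3 FPKM in the OFD1-depleted group, which overlap. Its log2 fold change was 0.16 (95% interval -0.17 to 0.5, adjusted p = 0.51 by limma), a range that includes no difference and a fall smaller than the point estimates of TUBA1B and TUBA1C. By its mean over the 6 samples it ranked 4624 among all genes.

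Among the beta isotypes, TUBB4B, the isotype found in cilia and spindles of many tissues, had the largest estimated fall. TUBB4B (ENSG00000188229, chr9:137241287-137243707, plus strand) had 387, 417 and 408 FPKM in control and 200, 225 and 178 FPKM in OFD1-depleted replicates 1 to 3. Every OFD1-depleted value was close to 1 log2 unit under the control mean, by -1.01, -0.84 and -1.18. The mean was 404 ± 15.3 FPKM in control and 201 ± 23.5 FPKM in the OFD1-depleted group (SD, n = 3 each), or 49.8% of the control mean. TUBB4B thus had a log2 fold change of -1.01 (SE 0.136, 95% interval -1.31 to -0.71, adjusted p = 0.000484 by limma), at percentile 4.46 of all genes tested.

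TUBB (ENSG00000196230, chr6:30717435-30725538, plus strand), the most abundant beta isotype, had 746, 760 and 772 FPKM in control and 494, 526 and 480 FPKM in the OFD1-depleted group. The groups were far apart, and the control replicates differed little. The mean of TUBB was 759 ± 13.1 FPKM in control and 500.0 ± 23.7 FPKM in the OFD1-depleted group (SD, n = 3 each). For TUBB the log2 fold change was -0.60 (SE 0.131, adjusted p = 0.00928 by limma). The call was lost without control replicate 1 (adjusted p = 0.0573 by limma) or control replicate 3 (0.0555), at log2 fold changes of -0.62 and -0.59.

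TUBB3 (ENSG00000258947, chr16:89921392-89938761, plus strand), known as the beta isotype of neurons, was also abundant in these cells. It had 138, 133 and 155 FPKM in control and 85.0, 101 and 75.6 FPKM in the OFD1-depleted group. The groups did not overlap, and the fall held without any single library. The log2 fold change of TUBB3 was -0.71 (SE 0.142, 95% interval -1.02 to -0.39, adjusted p = 0.00606 by limma).

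TUBB6 (ENSG00000176014, chr18:12307669-12344320, plus strand), a widely expressed and more divergent beta isotype, had 273, 291 and 284 FPKM in control and 200, 223 and 182 FPKM in the OFD1-depleted group. All control values were the higher ones. For TUBB6 the log2 fold change was -0.49 (SE 0.131, adjusted p = 0.0254 by limma). The call held without OFD1-depleted replicate 2 (adjusted p = 0.00461 by limma) and was lost when any other library was left out, with adjusted p of 0.0956, 0.0596 and 0.101 without control replicates 1, 2 and 3, and 0.0808 and 0.0856 without OFD1-depleted replicates 1 and 3.

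TUBB2A and TUBB2B, neighbouring genes on chromosome 6 with nearly the same coding sequence, were the rarest of the 6 beta isotypes described here. TUBB2A (ENSG00000137267, chr6:3153497-3157544, minus strand) had 19.7, 21.9 and 18.6 FPKM in control and 14.7, 20.0 and 14.1 FPKM in the OFD1-depleted group. OFD1-depleted replicate 2 lay among the controls and the other two lay under them. Its log2 fold change was -0.32 (95% interval -0.66 to 0.03, adjusted p = 0.197 by limma), and without OFD1-depleted replicate 2 it was -0.48 with an adjusted p of 0.0154. TUBB2B (ENSG00000137285, chr6:3223324-3231730, minus strand) had 3.85, 4.42 and 3.91 FPKM in control and 2.89, 3.84 and 3.45 FPKM in the OFD1-depleted group. The groups of TUBB2B were barely apart, and its log2 fold change of -0.26 did not pass the threshold (95% interval -0.63 to 0.11, adjusted p = 0.339 by limma).

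For each isotype alone, the two-sided exact permutation test over 3 against 3 samples cannot give a p under 0.1. It gave that smallest value for the 8 isotypes whose groups were apart, and 0.4 for TUBA4A and 0.3 for TUBB2A. Within the OFD1-depleted group, 9 of the 10 isotypes were highest in replicate 2 and TUBA1A in replicate 1. Replicate 2 also had the highest sum of FPKM over all genes, 493509.6 against 433262.0 to 444337.0 in the other two.

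**Figure D2:**
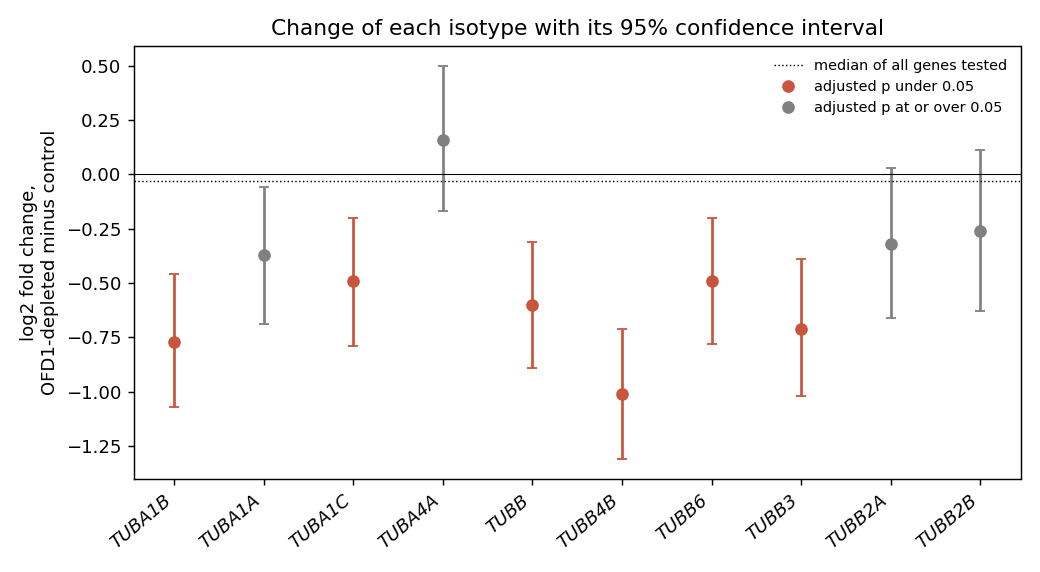
Log2 fold change of OFD1-depleted over control for the 10 isotypes, on the log2(FPKM + 0.1) scale, with points for the estimates bars for their 95% intervals, red for an adjusted p under 0.05 and a dotted line at the median of all genes tested. TUBB4B lies lowest at -1.01, and TUBA4A, at 0.16, is the only isotype above 0.

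The order of the isotypes by level was mostly kept. In control it ran from TUBA1B through TUBB, TUBA1A and TUBB4B to TUBB6 and TUBA1C, then TUBB3, TUBB2A, TUBA4A and TUBB2B, and only the neighbours TUBB6 and TUBA1C overlapped between samples. In OFD1-depleted samples TUBB4B had moved down next to TUBB6 and TUBA1C, and the ranges of neighbours among these 3 overlapped. The mean of TUBB4B was 1.43 times that of TUBB6 in control, with no overlap, and 1.0 times in OFD1-depleted samples, with overlap. TUBB2A and TUBA4A, which were apart in control, overlapped in OFD1-depleted samples.

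The summed levels of the alpha and of the beta isotypes were lower by similar factors. The alpha isotypes summed to 1878, 2184 and 1912 FPKM in control and 1288, 1336 and 1250 FPKM in the OFD1-depleted group, or 64.9% of control on average. The beta isotypes summed to 1568, 1628 and 1641 FPKM in control and 996, 1100 and 934 FPKM in the OFD1-depleted group, or 62.6% of control. Neither sum overlapped between groups. The ratio of alpha to beta was 1.20, 1.34 and 1.17 in control and 1.29, 1.21 and 1.34 in OFD1-depleted samples, which overlap. Both sums together made 0.844% to 0.922% of all FPKM in control and 0.493% to 0.514% in OFD1-depleted samples. These sums are descriptions and were not tested.

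Within each family the make-up differed between groups. TUBA1B made 64.5%, 61.2% and 63.8% of the alpha sum in control and 56.4%, 57.5% and 57.5% in OFD1-depleted samples. TUBA1A made 22.6%, 24.7% and 22.7% in control and 28.9%, 27.4% and 26.9% in OFD1-depleted samples. Thus the share of TUBA1B was smaller and that of TUBA1A larger in every OFD1-depleted sample, with no overlap. TUBB4B made 24.7%, 25.6% and 24.8% of the beta sum in control and 20.1%, 20.5% and 19.1% in OFD1-depleted samples. TUBB6 made 17.4%, 17.9% and 17.3% in control and 20.0%, 20.3% and 19.5% in OFD1-depleted samples, the opposite direction to TUBB4B. The shares of TUBA1C, TUBA4A, TUBB, TUBB2A and TUBB2B were also larger in every OFD1-depleted sample, with no overlap. Shares within a family add up to a fixed whole, so a larger share need not be a higher level. TUBA1A was at 76.9% and TUBB6 at 71.3% of the control mean in FPKM. The share of TUBB3 overlapped between groups, at 8.18% to 9.41% in control and 8.10% to 9.22% in OFD1-depleted samples.

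**Figure D3:**
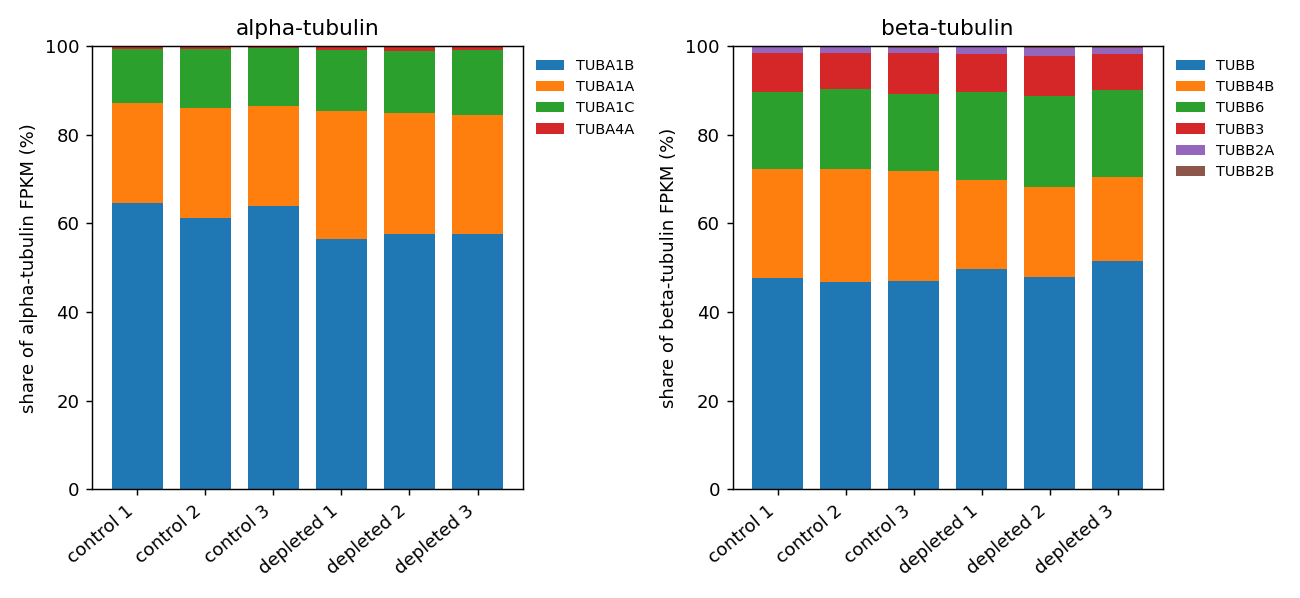
Share of each isotype in the summed alpha-tubulin and in the summed beta-tubulin FPKM, in percent, with 1 stacked bar per sample. The TUBA1B part of the alpha bars is 61.2% to 64.5% in control and 56.4% to 57.5% in OFD1-depleted samples.

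Reads of close paralogs can be assigned to either gene, which limits the single values above. The coding sequences of TUBA1A, TUBA1B and TUBA1C were 95.9% to 97.2% identical and those of TUBB2A and TUBB2B 98.1%, whereas TUBA4A was 84.4% to 85.7% identical to the other alpha isotypes. The sum of TUBA1A, TUBA1B and TUBA1C, which depends less on how reads were divided among them, was 1979 ± 166 FPKM in control and 1278 ± 41.3 FPKM in the OFD1-depleted group (SD, n = 3 each). The sum of TUBB2A and TUBB2B was 24.1 ± 1.95 and 19.6 ± 3.64 FPKM, with overlapping groups. The table also listed 50 tubulin pseudogenes, of which 11 were above 0, and together they made 0.133% of the isotypes' FPKM in control and 0.112% in OFD1-depleted samples.

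Some isotypes also overlap other genes, and the strand setting of the counting was not given in the sources used here. The labels name a directional kit beside another that is not called directional. The long non-coding RNA AC011603.2 (chr12:49127782-49188484) runs opposite to TUBA1B and TUBA1A and shares 3616 and 3799 bases with them. It had 151, 270 and 135 FPKM in control and 114, 107 and 60.3 FPKM in the OFD1-depleted group (log2 fold change -0.97, adjusted p = 0.0365 by limma). Among control samples it was highest in replicate 2, as TUBA1B and TUBA1A were. The same held for isotypes that it does not overlap, TUBA1C, TUBA4A, TUBB2A, TUBB2B, TUBB4B and TUBB6, but not for TUBB and TUBB3. Without strand the reads of AC011603.2 and those of TUBA1B and TUBA1A cannot be told apart, and its part in their difference was not tested. TUBB6 shares 15377 bases with AFG3L2 on the opposite strand, which had 23.9 and 23.0 FPKM in control and OFD1-depleted samples. TUBA4A shares 628 bases with STK16 (9.51 and 9.52 FPKM) and TUBB2B 328 bases with PSMG4 (11.8 and 12.4 FPKM), also on opposite strands. These levels are near that of TUBA4A and above that of TUBB2B, and their part in the values of both isotypes was not tested.

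Because most isotypes were lower together, their promoters were searched for the same short motifs. The windows run from 250 bases before to 50 bases after the RefSeq transcription start (GRCh38.p14), and a motif was counted on both strands. Where RefSeq gave more than 1 window for a gene, that nearest to the start of the canonical transcript was taken. CCAAT, the box bound by NF-Y, was in the windows of 7 of the 10 isotypes, against 34.6% of all 35116 windows. TUBB4B, which fell most, held it 3 times, at 232, 166 and 103 bases before the start, whereas TUBA1B held none. TUBA1A, which did not pass the threshold, held it 2 times. TUBA1C, TUBB, TUBB3 and TUBB6, and also TUBB2B, which did not pass, held it 1 time. TUBA4A and TUBB2A, which did not pass either, held none. A relation of the box to the size of the fall was not tested. TATAAA was in 1 of the 10 (TUBB2A), against 11.5% of all windows. TTTGAA and TTCGAA, forms of the element bound by the DREAM and MMB complexes of cell-cycle genes, were in 2 (TUBA1C and TUBB4B) and 1 (TUBB3) of the 10, against 15.2% and 1.45% of all windows. A match is a description of the letters, not a bound site. The windows of TUBB4B (chr9:137241037-137241336, plus strand) and TUBA1B (chr12:49131346-49131645, minus strand) are given 5′ to 3′, with CCAAT on either strand in capitals.
TUBB4B: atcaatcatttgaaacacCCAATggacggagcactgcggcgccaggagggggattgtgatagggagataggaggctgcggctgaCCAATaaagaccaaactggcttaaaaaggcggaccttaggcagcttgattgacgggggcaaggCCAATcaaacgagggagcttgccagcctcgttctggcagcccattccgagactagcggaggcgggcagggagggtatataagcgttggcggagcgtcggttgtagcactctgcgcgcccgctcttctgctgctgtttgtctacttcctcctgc
TUBA1B: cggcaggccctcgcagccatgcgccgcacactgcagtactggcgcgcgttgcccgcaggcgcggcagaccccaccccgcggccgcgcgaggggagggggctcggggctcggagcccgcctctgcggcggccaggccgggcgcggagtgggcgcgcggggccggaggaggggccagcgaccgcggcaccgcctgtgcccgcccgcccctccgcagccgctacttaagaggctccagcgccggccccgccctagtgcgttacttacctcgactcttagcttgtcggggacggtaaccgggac

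The remaining alpha and beta isotypes were close to absent. None of TUBA3C, TUBA3D, TUBA3E, TUBA8, TUBAL3, TUBB1, TUBB4A and TUBB8 reached a mean of 1 FPKM, and together they summed to 0.119 to 0.326 FPKM in control and 0.221 to 0.542 FPKM in the OFD1-depleted group. TUBA3C and TUBAL3 were at 0 in all samples.

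The genes that nucleate, fold, modify and bind tubulin were mixed. Of 117 such genes in 11 lists, including the 8 rare isotypes, 88 were tested, 12 fell and 1 rose, against the 11.9% and 5.07% of all genes given above. The total of 13 was 4, 4 and 3 without control replicates 1, 2 and 3, and 21 and 6 without OFD1-depleted replicates 2 and 3. CKAP5, CLIP2 and FIGNL1 passed whichever library was left out, in all 6 cases. MAP4 passed in 4 of the 6, and KATNA1 and SPAST in 3. TTL, LRRC49, TUBGCP3 and CAMSAP1 passed in only 2, and TBCB, TUBE1 and TUBGCP4 in only 1.

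The folding machinery held 1 call. Of the 8 subunits of the CCT chaperonin, the ring that folds actin and tubulin, 0 passed the threshold and none was lower, with a median log2 fold change of 0.11. Scaling to the same total moved the median of all genes by -0.145, a larger step than this median, so their direction depends on the scaling. CCT3 had 151 ± 7.25 FPKM in control and 179 ± 14.1 FPKM in the OFD1-depleted group (SD, n = 3 each, adjusted p = 0.234 by limma). Of the 6 prefoldin subunits, which hand nascent chains to CCT, 0 passed, with a median of -0.01. PFDN5 had 131 ± 57.6 and 164 ± 66.4 FPKM. Of the 7 tubulin cofactors and partners, which build the dimer, 1 fell: TBCB, the cofactor that receives alpha-tubulin, had 81.6, 68.3 and 72.9 FPKM in control and 44.6, 60.4 and 33.5 FPKM in the OFD1-depleted group (log2 fold change -0.72, adjusted p = 0.0247 by limma).

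The autoregulation genes gave no call. Of 11, TTC5, SCAPER and the CCR4-NOT subunits, 0 passed the threshold in either direction, with a median log2 fold change of 0.03. TTC5 reads the start of the nascent tubulin chain, whose coding bases are shown above. TTC5 had 3.18 ± 0.422 FPKM in control and 2.92 ± 0.620 FPKM in the OFD1-depleted group (log2 fold change -0.13, adjusted p = 0.715 by limma). CNOT11, the list's gene with the highest level, had 21.9 ± 3.25 and 25.5 ± 2.06 FPKM.

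Among the modifying enzymes, TTL, the ligase that restores the terminal tyrosine of alpha-tubulin, fell from 5.66 ± 0.323 to 3.59 ± 0.677 FPKM (log2 fold change -0.66, adjusted p = 0.0229 by limma), as 1 of 3 tested genes of the tyrosination cycle. Its values did not overlap between groups. Of 13 tested genes of glutamylation and glycylation, 1 fell, LRRC49, a subunit of a tubulin polyglutamylase complex (2.41 ± 0.136 to 1.24 ± 0.342 FPKM, adjusted p = 0.0222 by limma). Of 3 acetylation genes 0 passed, and the deacetylase SIRT2 had 16.7 ± 0.673 and 18.8 ± 3.52 FPKM.

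Most of the calls lay among genes of microtubule nucleation, severing and binding, lists with 13, 6 and 18 tested genes. Over all genes tested, 11.9% passed as lower and 5.07% as higher. CKAP5, the polymerase that adds tubulin at growing plus ends, had 20.5, 21.4 and 20.1 FPKM in control and 8.56, 7.21 and 7.64 FPKM in the OFD1-depleted group (log2 fold change -1.40, SE 0.128, adjusted p = 4.35e-05 by limma). This was a larger fall in estimate than that of any isotype. In the same list of 18 tested genes, 4 fell, among them CLIP2, a plus-end linker (log2 fold change -0.75), and MAP4, the main microtubule-associated protein of non-neuronal cells (-0.52). Of 6 tested destabilising and severing genes 3 fell: FIGNL1 (log2 fold change -1.19, adjusted p = 0.00099 by limma), known best for its part in DNA repair, and the severing enzymes SPAST (-0.74) and KATNA1 (-0.58). Of 13 genes of gamma, delta and epsilon tubulin and the gamma-tubulin ring complex, which seeds microtubules, 2 fell and 1 rose. TUBGCP3 and TUBGCP4, of the ring, had log2 fold changes of -0.58 and -0.69, and TUBE1, the epsilon tubulin of centrioles, had 2.02, 2.30 and 2.30 FPKM in control and 3.84, 3.12 and 3.90 FPKM in the OFD1-depleted group (log2 fold change 0.68, adjusted p = 0.0237 by limma). TUBE1 did not pass with scaling to the same total (0.54, adjusted p = 0.0959 by limma), and TUBGCP4 did not with quantile normalization (-0.55, adjusted p = 0.0605).

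The genes whose levels ran most alike with each isotype are given as a description, over 6 samples of 2 groups, so that any gene that differs between groups as the isotype does ranks high. For TUBB4B they were TRIM8, LIG1 and APOBEC3B (Pearson's r of 0.999 for the first), for TUBB they were RECQL4, PLK1 and APOBEC3B (0.999), and for TUBA1B they were KLF2, SAR1A and UBTF (0.999). TUBA1A ran most like SAE1 (0.998), TUBA1C like SRGAP2D (0.998) and TUBA4A like AL353807.5 (0.990). Among the isotypes themselves, TUBB and TUBB4B had an r of 1.00 and TUBA1B and TUBB of 0.99, whereas TUBA4A had -0.41 to 0.25 with the others.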

How the data were processed

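RNA-seq of 3 control and 3 OFD1-depleted samples was analysed, grouped by their labels. Paired-end reads were aligned by the authors with HISAT2 (2.0.5 in the submitters' processing notes) to GRCh38, with Ensembl version 94 named in the methods, and summarized with StringTie, whose FPKM per gene they deposited. The methods name a directional kit, the labels that kit and another. Some gene identifiers of the table look later than that Ensembl version. The table holds no counts and each sample's FPKM is already divided by its depth.

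The 10 genes and all lists were chosen with earlier results of these data known. Genes whose mean reached 1 FPKM were compared with limma 3.58.1 (R 4.3.3, trend of variance on mean) on log2(FPKM + 0.1), a scale that understates changes of low genes. Two-sided p-values were adjusted by Benjamini-Hochberg over all 12025 genes, with a threshold of 0.05. Single members were also compared by exact permutation. Sums, shares, sequences and motifs were computed in Python 3.11.15 with pandas 2.3.3, numpy 2.4.6 and scipy 1.17.1.

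Named were all members, OFD1, up to 3 genes past the threshold per list by adjusted p, in a list with none the gene with the highest level, and the 3 genes most alike with each member, of which the text gives some. MKI67, TTC5 and the overlapping genes were named after their values were seen. Coding sequences came from GENCODE version 44, promoters from RefSeq. The 3′ ends of the coding sequences are not reported here. Alternatives were other pseudocounts, filters, scalings and limma settings, paralogs summed, the replicate block and each library left out. An equal total over all genes but the mitochondrially encoded ones was a scaling added after seeing the data.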

Additional observations from a re-analysis of the deposited data

How the results depend on the processing

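None of the members reversed direction under any of the 18 alternatives, and TUBB3 and TUBB4B passed the threshold under every one run for them. TUBA1B failed it only with no filter (adjusted p = 0.0769 by limma), where members past the threshold were 2 in place of 6, all genes 1083 in place of 2039, and pathway genes 4 in place of 13. A filter at a mean of 5 FPKM left 8 pathway genes. Limma array weights gave 3956 genes and 27 pathway genes. Leaving out each library gave 1138 to 2863 genes, 3 to 7 members and 3 to 21 pathway genes. Members past the threshold were 3 without control replicate 1 or 3. The log2 ratio of the alpha sum was -0.62 and that of the beta sum -0.68, against -0.77 and -0.82 with scaling to the same total (TPM) and -0.82 and -0.83 with quantile normalization. TUBA1A passed with array weights (adjusted p = 0.0447 by limma), quantile normalization (0.0135), TPM (0.0173) and an equal total over all but mitochondrially encoded genes (0.0304). TUBB2A passed with TPM (0.0425) and array weights (0.0111). TUBA1C and TUBB6 did not pass with median-of-ratios scaling (0.0547 and 0.0515), nor TUBA1C without the trend (0.0505). An equal total over all but mitochondrially encoded genes ended the calls of TUBE1 (0.0719), TUBGCP4 (0.0581) and CAMSAP1 (0.0562), median-of-ratios scaling that of TBCB (0.0521), and limma without the trend those of TBCB (0.0552) and CAMSAP1 (0.0535). Scaling to the same total moved the median of all genes by -0.145. Calls were 1429 lower and 610 higher, against 1990 and 272 with TPM and 1311 and 1093 with quantile normalization. The causes were not tested.

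Both groups carry replicate numbers 1 to 3, and deviations of same-numbered samples had correlations of 0.058, 0.048 and 0.011. Control replicates 1 and 2 correlated best with the OFD1-depleted sample of their own number, and control replicate 3 with OFD1-depleted replicate 2 (0.026). Such small values do not settle whether the numbers pair the samples, and they were not taken to do so. With the replicate block 2296 genes, 14 pathway genes and 6 members passed. The block ended the call of TUBGCP4 (adjusted p = 0.0577 by limma) and of no other member or pathway gene named here. FPKM without counts gives no counting error, and 3 samples a group limit the precision.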
